A study of Drosophila melanogaster with 4 samples.

Results

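Isolated Su(Hw) regions are stretches of the autosomal arms 2L, 3L and 3R of Drosophila melanogaster where the protein was enriched and no other enriched region lay nearby. Members were selected on the positions and widths of the authors' combined list, not directly on their scores. Width and score were related, as given below, so the width limit also bears on the scores. A region was taken as isolated when its midpoint was more than 20000 bp from the midpoint of every other enriched region of its arm and its width was under 3500 bp. The 2 Mb next to each centromere and 2 intervals of 3R across the Hox gene complexes were left out. The rule gave 392 regions of 5892. There were 125 on 2L, 137 on 3L and 130 on 3R. On the same stretches of these arms, 2621 narrow regions had a neighbour within 20000 bp (closely spaced regions) and 375 were 3500 bp or wider (wide regions).

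Su(Hw) is a zinc-finger DNA-binding protein best known from the insulator of the gypsy retrotransposon. There it recruits CP190 and Mod(mdg4), and a bound insulator placed between an enhancer and a promoter blocks their communication. In transgenes, a pair of gypsy insulators placed close together can cancel each other's block, so the spacing of bound sites has long been of interest. Most Su(Hw) sites of the fly genome lie outside gypsy, and in the ovary the protein also represses genes of the nervous system.

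All samples came from wild-type Oregon-R-modENCODE embryos at 14 to 16 h of development, fixed in 1.8% formaldehyde. The series held 2 chromatin immunoprecipitation (ChIP) samples, made with 1 antibody against Su(Hw), and 2 input DNA samples. Whole embryos were used, so a score is a mixture over all cell types, and a site bound strongly in few cells cannot be told apart from a site bound weakly in many. Whether separate embryo collections gave the ChIP samples is not in the labels, and their differences may be technical. The score is the authors' enrichment value, taken to be log2, with a zero point that the sources used here do not give. Depth is unknown, and scores are not read as fold enrichment over input.

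The isolated regions stood in long stretches with no other listed region. The nearest other region lay at a median of 27.4 kb, with a middle 50% from 22.9 to 35.9 kb and a maximum of 84.9 kb. The farther of the neighbours on either side lay at a median of 47.4 kb, and for 39 regions it was over 100 kb away. No other region lay within 50 kb on either side of 40 regions (10.2%). Within 100 kb every isolated region had at least 1 neighbour, with a median of 7, against a median of 11 around closely spaced regions and 10 around wide ones. Isolation thus describes the near surroundings of a site, and it is fixed by the rule.

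When each stretch between midpoints was divided equally between its neighbours, the isolated regions took 25.5% of the sequence and made up 11.6% of the 3388 regions on it. The closely spaced regions took 63.7% of the sequence with 77.4% of the regions. The wide regions took 10.8% with 11.1%. These shares follow from the spacing rule and are given as a description.

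**Figure D1:**
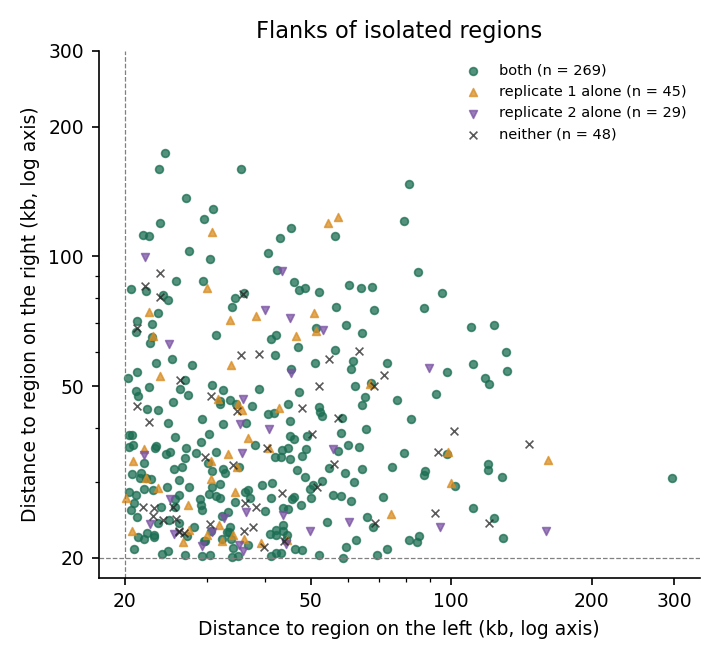
Distance from each isolated region to the next region on its left (horizontal axis, kb, log scale) and on its right (vertical axis, kb, log scale), as 391 points marked by whether the replicate lists held the region. The dashed lines stand at the 20 kb of the rule, and points of all 4 kinds of support lie along both lines and far from them. The first region of 3L has no region on its left and is not drawn.

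The 8 most isolated regions were all found in both replicates and ranged widely in score. The farthest from any neighbour lay on 3R at 19240564 to 19243034, 84.9 kb from its left neighbour and 92.0 kb from its right one, midpoint to midpoint as all distances here. The combined list scored it 1.55, replicate 1 1.62 and replicate 2 1.51. Next came 3R 4687678 to 4690482, with 95.7 and 82.3 kb on its sides, which also held the highest score of all isolated regions. The region 3L 10282466 to 10284758 stood 81.4 kb from its left and 147.0 kb from its right neighbour. Its scores were 1.68, 1.84 and 1.48 in the combined, replicate 1 and replicate 2 lists. Of the 8, 7 scored above the median of the isolated regions, 0.62.

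The exception lay on 3L at 7635758 to 7637788, 123.2 and 69.5 kb from its neighbours, where the combined list scored 0.42, replicate 1 0.51 and replicate 2 0.35. On 2L at 663412 to 665722 the scores were 0.77, 0.77 and 0.88, with 87.5 and 75.7 kb on its sides. The other regions of the 8 lay on 2L at 16669708 to 16672086, 20717808 to 20719914 and 394450 to 396758, with combined scores of 1.44, 0.92 and 1.58. Their nearest neighbours were 79.3, 68.7 and 68.3 kb away.

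Across the 392 regions the score hardly moved with distance to the nearest neighbour (Spearman's rho 0.0059, Pearson's r 0.081). In 4 equal groups ordered by that distance, the median score was 0.64, 0.59, 0.53 and 0.70. The share found in both replicates was 70.4%, 64.3%, 69.4% and 70.4%. Nor did the score move with that of the nearest neighbour (rho -0.018). These correlations are across regions of the same libraries and are descriptions.

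The longest flank stood on 3L, where the midpoint of the region at 13293908 to 13296608 was 297.4 kb from that of its left neighbour. The combined list scored that region 2.98, replicate 1 2.35 and replicate 2 3.49. On 2L, the region at 19189196 to 19191274 was 173.5 kb from its right neighbour, and its combined score was 0.80. Both flanks were picked with their lengths known. The mappable share of such stretches was not measured, so a stretch with no listed region need not be free of Su(Hw).

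The neighbours of isolated regions are described here without a reference value, since the spacing rule bears on them: each has a gap of over 20 kb on at least 1 side. The nearest neighbour was a closely spaced region in 212 cases, another isolated region in 136 and a wide region in 44. Along the arms they formed 258 runs of consecutive isolated regions, of which 166 were a region alone, 66 held 2, 15 held 3, 8 held 4, 2 held 5 and 1 held 7. The longest run, of 7, spanned 331.1 kb on 2L from 14287078 to 14620816. Its combined scores were, from left to right, 0.43, 1.16, 0.32, 0.14, 0.31, 1.23 and 2.83. The last of these, at 14617522 to 14620816, scored 2.78 in replicate 1 and 3.02 in replicate 2. Of the 7 regions, 5 were found in both replicates, the fourth in replicate 2 alone and the fifth in neither. Such a sparse stretch thus held strong and weak sites side by side. Runs of 5 lay on 3L from 12383982 to 12574702 and on 3R from 5418886 to 5532138, and in each 2 of the 5 regions were found in both replicates.

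Isolated regions were spread over all 3 arms. Their density was 5.95 per Mb on 2L, 6.08 on 3L and 5.15 on 3R. They made up 12.5% of the regions on 2L, 13.2% on 3L and 9.64% on 3R. In the stretch analysed, the centromere side of 3L had the larger share, 80 of 483 regions (16.6%) against 57 of 555 (10.3%) on the side of the tip. On 2L these shares were 13.4% and 11.6%, and on 3R they were 9.49% and 9.77%. No interval or test is given for these densities and shares, because regions along an arm are not placed independently of each other.

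Of the 392 isolated regions, 269 (68.6%, 95% exact binomial interval 63.8 to 73.2) overlapped a region of both replicate lists, against 73.5% of all combined regions. A further 45 (11.5%) were in replicate 1 alone, 29 (7.40%) in replicate 2 alone and 49 (12.5%) in neither. Over all combined regions these shares were 9.49%, 4.12% and 12.9%. The share found in both was 72.8% for closely spaced regions and 99.7% for wide ones. By arm it was 72.0% of isolated regions on 2L, 67.2% on 3L and 66.9% on 3R. Replicates and combined list come from the same libraries, so these shares are descriptions and the intervals cover counting only. The width limit bears on the contrast with wide regions, since support changed with width, as given below.

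At like scores, the intervals for isolated and closely spaced regions overlapped. They treat regions of the same libraries as independent, so their overlap is no test of a difference between the classes. With scores under 0.25, 11 of 72 isolated regions (15.3%, interval 7.88 to 25.7) and 64 of 362 closely spaced ones (17.7%, 13.9 to 22.0) were found in both. From 0.25 to 0.5 the shares were 42.9% (33.2 to 52.9) and 41.7% (38.0 to 45.6). From 0.5 to 1 they were 98.2% and 95.9%. The 51 isolated regions from 1 to 1.5, the 56 from 1.5 to 2 and the 25 from 2 to 2.5 were all found in both. Isolated regions under 0.5 made up 45.2% of their class, against 39.2% of the closely spaced and 2.40% of the wide regions.

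**Figure D2:**
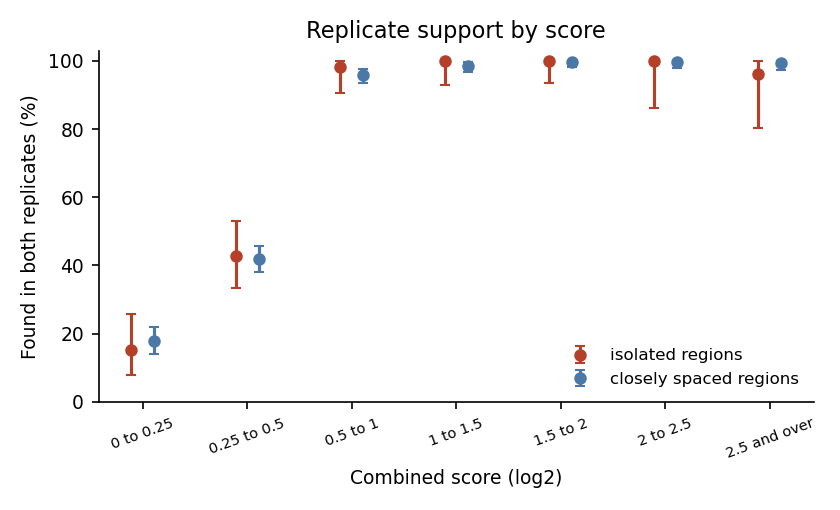
Share of regions found in both replicate lists (vertical axis, %) by combined score (horizontal axis, log2, in 7 steps) for isolated and closely spaced regions, with 95% exact binomial intervals as bars. In each step the intervals of the classes overlap, which is a description and no test. The share rises from 42.9% to 98.2% of isolated regions between the second and the third step.

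Support and score both changed at a width of about 2 kb. Of the 143 isolated regions narrower than 2000 bp, 27 (18.9%) were found in both replicates, against 242 of the 249 wider ones (97.2%). The narrower regions had a median score of 0.25, and 1 of them scored 0.5 or more. The wider ones had a median of 1.37, and 214 scored 0.5 or more. Above 2000 bp the score rose with width (rho 0.684 over 249 regions), whereas below it the relation was weak and inverse (rho -0.187 over 143). From 2000 to 2200 bp the median was 0.55, from 2200 to 2500 bp it was 1.51 and from 3000 to 3500 bp it was 2.09. Over all isolated regions rho was 0.830, close to the 0.853 of closely spaced regions. The limit of 2000 bp was chosen after the values were seen. The split at this limit was made for isolated regions alone, so whether the step is particular to them was not tested. Closely spaced regions had similar widths, with a median of 2187 bp against 2149 bp for isolated ones. Width and score come from the same read profile, and 49 of the 143 narrower regions were in neither replicate list.

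**Figure D3:**
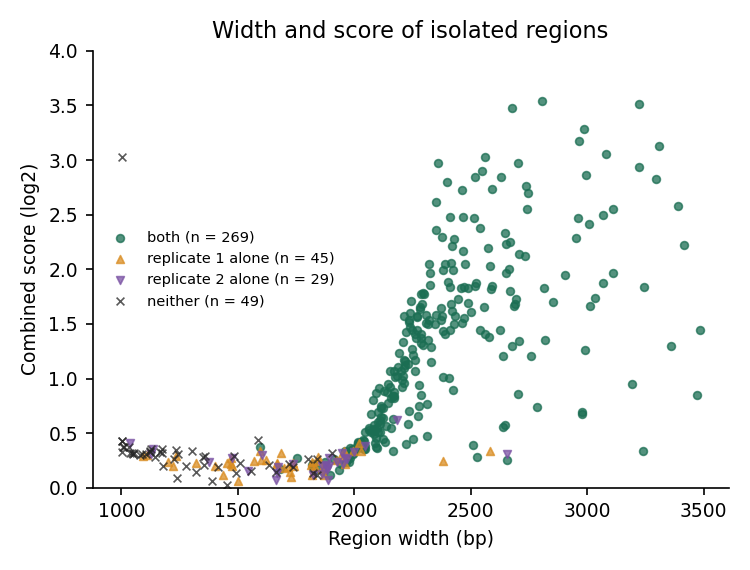
Width (horizontal axis, bp) and combined score (vertical axis, log2) of the 392 isolated regions, marked by replicate support. Regions under 2000 bp lie below 0.5 with a lone exception at 1001 bp and 3.03, and above that width the scores fan out to 3.54.

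The lone exception was a region of 2L at 9975434 to 9976434. It was 1001 bp wide, the smallest width in the combined list, and scored 3.03, yet neither replicate listed it. The same score to 11 decimals was held by 2 more regions of 1001 bp, on 3R at 2563988 to 2564988 and at 3675520 to 3676520, and neither replicate listed these. Among the isolated regions, 376 had a score that no other combined region shared. The smallest width was shared by 3 more isolated regions, on 3L at 1575806 to 1576806 and 13395958 to 13396958 and on 3R at 25184374 to 25185374, with scores of 0.33, 0.43 and 0.43. None of these was in a replicate list. In all, 15 isolated regions were narrower than 1100 bp, of which 13 were found in neither replicate and none in both. Without them, 71.4% of the isolated regions were found in both. Widths under 1100 bp were not particular to this class. They were held by 224 of all 5892 combined regions and by 94 of the 2621 closely spaced ones. The smallest width was held by 33 combined regions.

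The 12 strongest isolated regions found in both replicates lay on 3L (5), 3R (5) and 2L (2). The highest score was 3.54, on 3R at 4687678 to 4690482, where replicate 1 gave 3.26 and replicate 2 gave 3.99. Next was 2L 4344466 to 4347688, whose combined score of 3.51 stood beside 3.31 in replicate 1 and 3.95 in replicate 2. The region 3R 20103736 to 20106414 followed with 3.48, 3.59 and 3.55. Replicate 2 was the higher at the first and the second of these and the lower at the third.

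On 3L, the strongest site was at 17731182 to 17734166, where the combined list gave 3.29, replicate 1 3.48 and replicate 2 3.20. The site at 10636244 to 10639550 had 3.13, 3.28 and 3.21, and the site at 504280 to 507358 had 3.06, 3.00 and 3.22. At 9537184 to 9539730 the scores were 2.90, 2.94 and 2.91. The remaining site on 3L, at 13293908 to 13296608, is the one with the longest flank.

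Further strong sites of 3R included 12198218 to 12201180 (combined score 3.18), 3024612 to 3026970 (2.97) and 3874814 to 3878036 (2.94), and the other one on 2L was at 575776 to 578338 (3.02). In 8 of the 12 the replicates differed by at most 0.5, and replicate 2 was higher in 6. The nearest neighbour of the 2L site at 4344466 was 21.3 kb away and that of the 3R site at 4687678 was 82.3 kb away, so strong sites occurred at short and long distances alike. Neither the genes nor the sequence at the sites could be given, since no annotation or genome of FlyBase release 5 was used.

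At the weak end, the lowest combined score of a region found in both replicates was 0.12, on 3L at 15670858 to 15672752, where replicate 1 gave 0.23 and replicate 2 gave 0.13. On 3R at 11924678 to 11926542 the scores were 0.16, 0.21 and 0.28, and on 3L at 21387250 to 21389182 they were 0.17, 0.16 and 0.27. These regions were picked among those found in both replicates, so their recurrence was set by that choice. Of the 72 isolated regions with scores under 0.25, 11 (15.3%) were found in both.

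Regions held by 1 replicate list were weak. In the 45 of replicate 1 alone, the combined score ran from 0.06 to 0.41 with a median of 0.23. The highest lay on 3L at 11408896 to 11410916 (combined 0.41, replicate 1 0.57), on 2L at 9810150 to 9812144 (0.34 and 0.49) and on 2L at 11805852 to 11808432 (0.34 and 0.57). In the 29 of replicate 2 alone, the score ran from 0.07 to 0.62, also with a median of 0.23. The highest lay on 3R at 15662198 to 15664382 (combined 0.62, replicate 2 1.11), on 2L at 17783890 to 17784928 (0.41 and 0.35) and on 3L at 12460570 to 12462616 (0.38 and 0.84). Among the 49 found in neither, the highest after the 2L region of 1001 bp was 3R 25541808 to 25543394, with 0.44.

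Isolated regions had a lower median score than closely spaced ones over all 3 arms together, but not on 2L and not among regions found in both replicates. The median combined score was 0.62 for isolated regions (middle 50% from 0.30 to 1.57), 0.80 for closely spaced and 2.08 for wide regions. Among regions found in both replicates the median was 1.27 for isolated and closely spaced regions alike and 2.08 for wide ones. By arm, isolated regions had the lower median on 3L (0.53 against 0.81) and on 3R (0.56 against 0.83), but on 2L the higher one (0.82 against 0.76). In the replicate lists, the isolated regions that had a partner showed medians of 0.92 in replicate 1 and 1.15 in replicate 2. The closely spaced regions had 1.04 and 1.25. Scores over 3 were held by 9 isolated regions (2.30%), 84 closely spaced regions (3.20%) and 49 wide ones (13.1%), against 4.45% of all combined regions. The combined list chose the regions, so none of these differences was tested. The width limit parts isolated from wide regions, so their contrast in score follows in part from the rule.

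**Figure D4:**
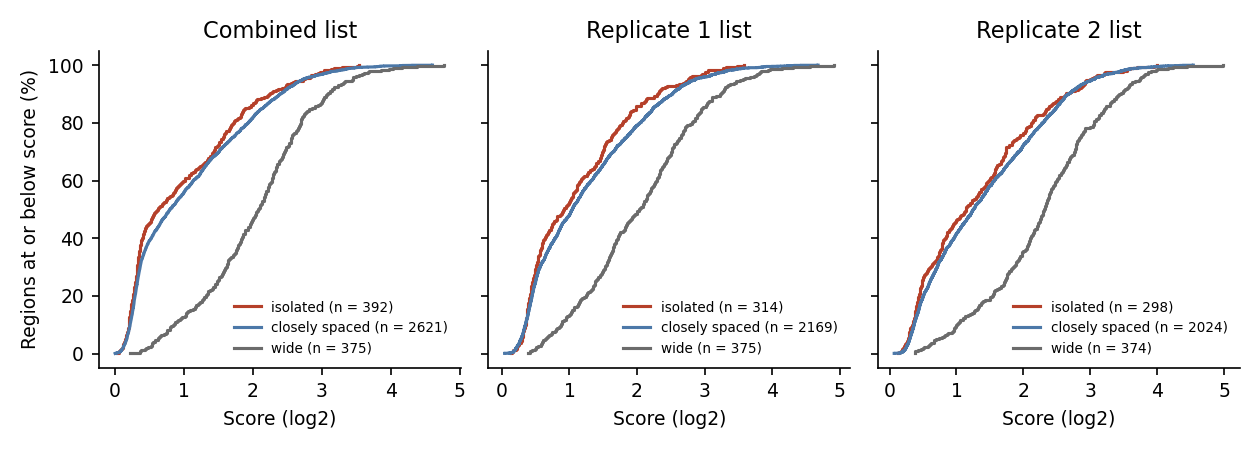
Cumulative share of regions (vertical axis, %) by score (horizontal axis, log2) in the combined list, the replicate 1 list and the replicate 2 list, for isolated, closely spaced and wide regions. The curves of isolated and closely spaced regions run close together, with medians of 0.62 and 0.80 in the combined list, and that of wide regions, with a median of 2.08, lies to their right in all 3 lists.

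Where both replicates held an isolated region, their regions lay at nearly the same position. Every isolated region that a replicate held matched exactly 1 region of that list, which left 269 pairs for the 392 regions. Pairs were formed by overlap with the same combined region, itself made from the same libraries. Close midpoints are thus in part set by the matching, and offsets were not computed for other classes. The midpoints of the replicates' regions lay at a median of 36.5 bp from each other and at most 1450.5 bp apart. Against the combined region, the midpoint of replicate 1 was within 50 bp at 74.7% of pairs and that of replicate 2 at 75.5%. Replicate regions were narrower than the combined ones by a median of 53 bp (replicate 1) and 81 bp (replicate 2).

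The combined list was made from the same libraries as the replicate lists, so isolation in them is largely set by the rule and is given as a description. Of the 314 isolated regions found in replicate 1, 309 (98.4%) also had no other replicate 1 midpoint within 20000 bp. In replicate 2 this was so for 292 of 298, and in both lists at once for 260 of the 269 pairs (96.7%). The replicate lists also hold fewer regions than the combined one, which favours large distances. When only regions found in both replicates were counted as neighbours, 445 regions were isolated. They comprised all 269 above and 176 that the full list made closely spaced, so neighbours not found in both replicates set the class of the latter. These 176 had a median score of 1.30.

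Replicate scores of the 269 pairs were correlated, with rho 0.861 and r 0.850, against 0.895 and 0.903 over 1900 closely spaced pairs. The median difference of replicate 2 minus replicate 1 was 0.0070 (SD 0.47 over pairs), and 181 pairs (67.3%) differed by at most 0.25. Replicate 2 was over 1 higher at 18 pairs (6.69%), against 4.95% of all 4226 paired regions of the combined list. Replicate 1 was over 1 higher at 0 pairs, against 0% of all. Replicate 2 was over 1 higher at 4.11% of closely spaced and 9.06% of wide pairs. With 1 library on each side these differences could not be tested.

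The largest difference was on 3R at 11828034 to 11831144, where replicate 1 gave 1.09, replicate 2 3.55 and the combined list 2.55. On 3R at 16664392 to 16667060 the replicate 1 and 2 scores were 0.72 and 2.62, on 3R at 26669556 to 26672114 they were 0.61 and 2.49, and on 3L at 16733874 to 16736360 they were 0.56 and 2.44. In the opposite direction the pairs stayed closer. The furthest were 3R 8373082 to 8375216, where replicate 1 gave 0.82 and replicate 2 gave 0.31, and 3R 3382836 to 3385116, with 1.89 and 1.43. On 3R at 25847448 to 25849534 the scores were 0.50 and 0.14, and the fourth was the remote 3L region at 10282466.

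The 18 pairs were chosen for their higher replicate 2 score, so their ranks and their contrast with the other pairs follow in part from that choice. They were spread over the arms, with 5 on 2L, 6 on 3L and 7 on 3R. Their replicate 1 scores ran from 0.53 to 2.35 with a median of 0.90, and their replicate 2 scores from 1.94 to 3.69 with a median of 2.52. They stood at a median of the 41.7th percentile of the replicate 1 list and the 82.2nd of the replicate 2 list. In the other 251 pairs these medians were 49.2 and 43.1. Their combined widths had a median of 2648 bp against 2277 bp, and their nearest neighbours lay at a median of 24170.5 bp against 27575 bp. They ranked from the 65.6th to the 97.9th percentile in replicate 2 and from the 25.2nd to the 84.4th in replicate 1.

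**Figure D5:**
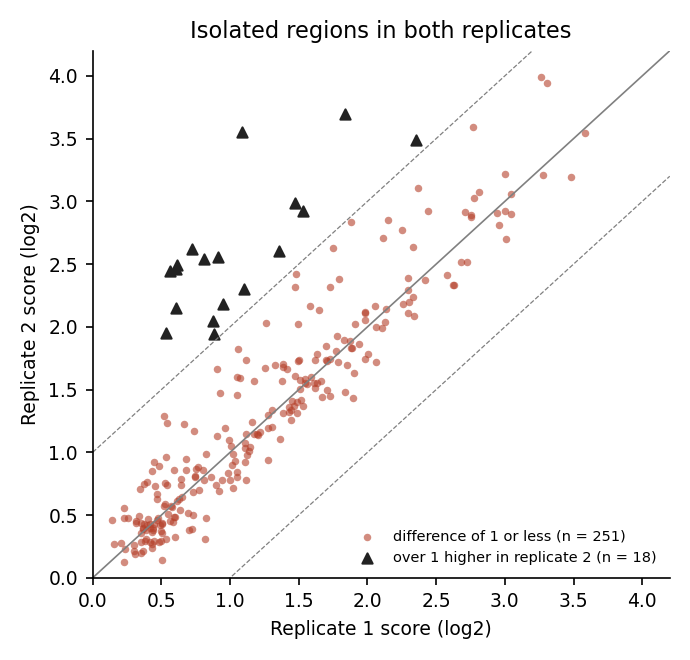
Score in replicate 1 (horizontal axis, log2) and replicate 2 (vertical axis, log2) of the 269 isolated regions found in both, with the line of equal scores and dashed lines at a difference of 1. The 18 black triangles lie above the upper dashed line, and 0 points lie below the lower one.

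The scores of regions at the thresholds of the rule are given as a description. Just inside the distance limit were 3L 14682206 to 14684444 (20.0 kb to the nearest region, score 1.60), 3L 17173278 to 17175698 (20.1 kb, 2.21) and 3R 5482230 to 5484730 (20.1 kb, 1.61). Just outside it were 2L 4976458 to 4978198 (score 0.17), 2L 17232794 to 17234852 (0.57) and 3L 14227854 to 14230374 (3.23), at 19.98, 19.94 and 19.90 kb. Just under the width limit were 3R 9784896 to 9788378 (3483 bp, score 1.45), 2L 18933886 to 18937358 (3473 bp, 0.85) and 3R 11892556 to 11895970 (3415 bp, 2.22). At or above it, and as far from other regions, were 40 regions, the narrowest being 3L 20096526 to 20100036 (3511 bp, 0.71), 2L 9209754 to 9213296 (3543 bp, 1.64) and 3L 20279484 to 20283092 (3609 bp, 1.09).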

How the data were processed

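The authors deposited 3 lists of enriched regions, with positions in FlyBase release 5 per the file headers. There is 1 list per ChIP replicate, called with the input of the same number per the labels, and 1 combined list. The column used is the authors' deposited enrichment score, taken to be log2. The base was inferred from the values. In the combined, replicate 1 and replicate 2 lists, 44, 93 and 73 distinct scores had a partner exactly 1 higher (tolerance 1e-11). The submitters' processing notes name Bowtie 0.12.7. For the caller, its threshold and the scaling, nothing is stated in those notes or the headers, and another threshold could list other weak regions, which sets which regions count as isolated.

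Distances are between midpoints, over all enriched regions of an arm. Regions matched when they overlapped by at least 1 bp. Values were computed with Python 3.11.15, numpy 2.4.6, pandas 2.3.3 and scipy 1.17.1 and drawn with matplotlib 3.10.9. The distances, the matching of regions and the count of score differences over 1 were tested on simulated data. The other steps were not, and no simulated region was placed close to the distance limit. Members and sites were chosen with earlier results of these data known. Sites named are the 12 highest-scoring found in both replicates, the 8 most isolated, the first 3 of the narrowest by position, the 3 weakest in both replicates, the 3 strongest of each lesser kind of support and the 4 largest replicate differences in each direction. To these come the 3 regions on each side of each threshold, the longest runs and the longest flanks. Also named are a further region of the smallest width and the regions that share the score of the strongest region found in neither replicate. The regions flagged below were named as well. The gene table at hand follows Release 6, and positions were not converted.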

Additional observations from a re-analysis of the deposited data

Results flagged for a closer look

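A replicate list held 7 regions within 20 kb of an isolated region that overlapped no combined region, and so were not counted as neighbours. In replicate 1 they lay on 3L at 2389445 to 2390748 (score 0.31), on 3R at 8386220 to 8387633 (0.57) and on 3R at 25394587 to 25395967 (0.49). In replicate 2 they lay on 2L at 14371505 to 14372817 (score 0.29), on 3L at 15044085 to 15045951 (0.21), on 3L at 17849700 to 17851622 (0.27) and on 3R at 23372328 to 23374182 (0.33). The nearest lay 2.01 kb from the isolated region of 2L at 14368984 to 14371314, which belongs to the run of 7. No control samples have lists of their own, and what sets these 7 apart was not tested.

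The combined list marked 1 region on these stretches as depleted, on 3L at 18638592 to 18640176 with a score of -0.028. It lay 48.5 kb from the nearest isolated region, at 18589838 to 18591950, and was used in no distance.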

How the results depend on the processing

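Alternatives using regions of at least 1100 bp and midpoints of replicate regions within 250 bp of each other for score differences were chosen after seeing the data. The number of isolated regions followed the distance limit by construction, with 642 at 15000 bp and 164 at 30000 bp, and ran from 318 to 446 under the other 5 alternatives. The share found in both replicates was 71.5% with no width limit, 65.1% with midpoints within 250 bp, 99.5% in the better-scoring 50% and, by construction, 100% when only regions found in both were used. Against a single replicate list it was 76.0% to 80.1%, and by construction it could not be below the share in both. The match by midpoints is stricter than 1 bp of overlap, so by construction it could not raise the share. The median score was 0.77 at 15000 bp and from 0.92 to 1.15 in a single replicate list. Over the 445 regions isolated when only regions found in both were counted, it was 1.29.

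The gap in median score to closely spaced regions was -0.18. It reversed to 0.0017 among regions found in both replicates and to 0.068 on 2L, was -0.28 on 3L and -0.28 on 3R, and ranged from -0.13 to -0.10 in a single replicate list. The gap to wide regions was -1.46 and follows in part from the width limit. It kept its sign, at -0.81 among regions found in both, -1.22 on 2L and -1.60 on 3L, and from -1.16 to -1.12 in a single replicate list. The correlation of replicate scores was rho 0.531 in the better-scoring 50% of pairs by combined score. That cut narrows the range of scores, so the value cannot be set against the 0.861 of all pairs. No like value was computed for other classes. At a threshold of 0.5, 43 of the 269 pairs were higher in replicate 2 and 1 in replicate 1. Over all 4226 paired regions these counts were 546 and 20. A lower threshold could by construction not give fewer pairs. For the same members, with the limit in the replicate lists alone loosened to 15000 bp, the share isolated in both lists was 98.1%. By construction that change could not lower it. In a single list the share was from 97.99% to 98.4%. Where no construction is named, the cause was not tested. No paired analysis was possible because the input samples came without region lists and no test was run. Depth is unknown, so its limit on weak regions could not be measured.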
